A study of Mus musculus with 10 samples.

Results

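Heat shock proteins and their J-domain cochaperones were followed through ribosome-bound RNA of Drd1-expressing cells of the mouse striatum. The members were the gene rows whose symbol begins with Hsp, or with Dnaja, Dnajb or Dnajc and a number, and 75 of 32531 gene rows met this rule. Of these, 45 were J-domain genes and 30 were Hsp genes. A level of at least 10 counts in 3 or more pull-downs was reached by 63 members (39 J-domain and 24 Hsp genes), among 14716 genes of the whole series that did so.

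All mice carried the Drd1-TRAP transgene of line CP73, in which an EGFP-tagged ribosomal protein L10a is made in cells that use the Drd1 promoter, on a background bred to C57BL/6 for at least 9 generations. Tagged polysomes were captured from the homogenised whole striatum with antibodies against EGFP and their RNA was sequenced. There were 3 pull-downs from mice of a short-access intravenous study that self-administered cocaine, 3 from a yoked control, 3 from mice that self-administered saline, and 1 input library of total striatal RNA. In a yoked design one animal's deliveries usually follow the responses of another. The labels do not say what these yoked mice received or whether each library came from separate animals, so the p-values below rest on the spread between libraries, which may be technical.

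Chaperones of the Hsp70 and Hsp90 classes bind unfolded proteins and release them in cycles driven by ATP. J-domain proteins bring clients to Hsp70 and trigger its ATP hydrolysis, and nucleotide exchange factors reset it. Cells hold separate sets in the cytosol, the endoplasmic reticulum (ER) and the mitochondria, and in neurons the J-domain proteins Dnajc5 and Dnajc6 serve synaptic vesicles. Heat shock factors raise many of the cytosolic genes under heat or protein damage, and the unfolded protein response raises the ER genes.

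Levels below are counts per 1e+06 gene counts (CPM), and libraries are called by group and number. Depth was 32.2 to 33.4 times 1e+06 gene counts in cocaine, 38.6 to 45.2 in yoked and 12.5 to 28.4 in saline pull-downs, and 40.5 in the input. Each group was sequenced in a lane of its own, and effects of lane and of group cannot be told apart. The 8 measured D1 neuron markers had a median ratio to the input of 2.42, while 6 D2 neuron, 10 astrocyte and 10 oligodendrocyte markers had medians of 0.166, 0.184 and 0.146. The 9 measured cortical glutamatergic markers had a median of 1.84, and 6 of them had a median ratio above 1. Summed D1 markers were highest in yoked 3, at 3388 CPM against 2282 to 2979 in the other 8 pull-downs. Summed astrocyte, oligodendrocyte and microglial markers did not set yoked 3 apart, at 680 CPM, with 630 in cocaine 3, 744 in saline 3 and up to 2003 elsewhere. Growth hormone (Gh) RNA, known from the pituitary, was at 340 CPM in saline 1 and 0 to 3.28 in the other 8 pull-downs, against 2356 in the input.

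The first comparison set each pull-down against the input. It asked which chaperone RNAs were high or low in the captured RNA relative to total striatal RNA. The input was sequenced in another lane than the pull-downs. Of its uniquely aligned reads 27.6% matched no gene, against 12.3% to 16.1% in the pull-downs. The part of these differences in the ratios was not tested. The summed members took 0.552% to 0.651% of pull-down gene counts, against 0.415% of the input's. The median member lay at 1.34 times its input level, against 0.976 over all 14716 genes. A total of 35 of 63 members lay above the input in each of the 9 pull-downs (28.4% of all genes did) and 11 below it in each (33.3% of all genes). At least 2-fold above in each of 9 were 3 members, Hspe1, Hspb11 and Dnajc15 (3.25% of all genes), and 1 was at least 2-fold below in each, Dnajc1 (8.15% of all genes). With TMM scaling over the 10 libraries the median of all genes moved to 1.1 and that of the members to 1.52, and 9 members were at least 2-fold above in each pull-down (5.46% of all genes). Under that scaling 40 members lay above the input in each pull-down and 4 below it in each. Of all 14716 genes, 5528 lay above and 3844 below. With 1 input these ratios, taken as (CPM + 0.5)/(input CPM + 0.5), have no test, and in bulk RNA fewer cells of a type and less RNA per cell cannot be told apart.

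**Figure D1:**
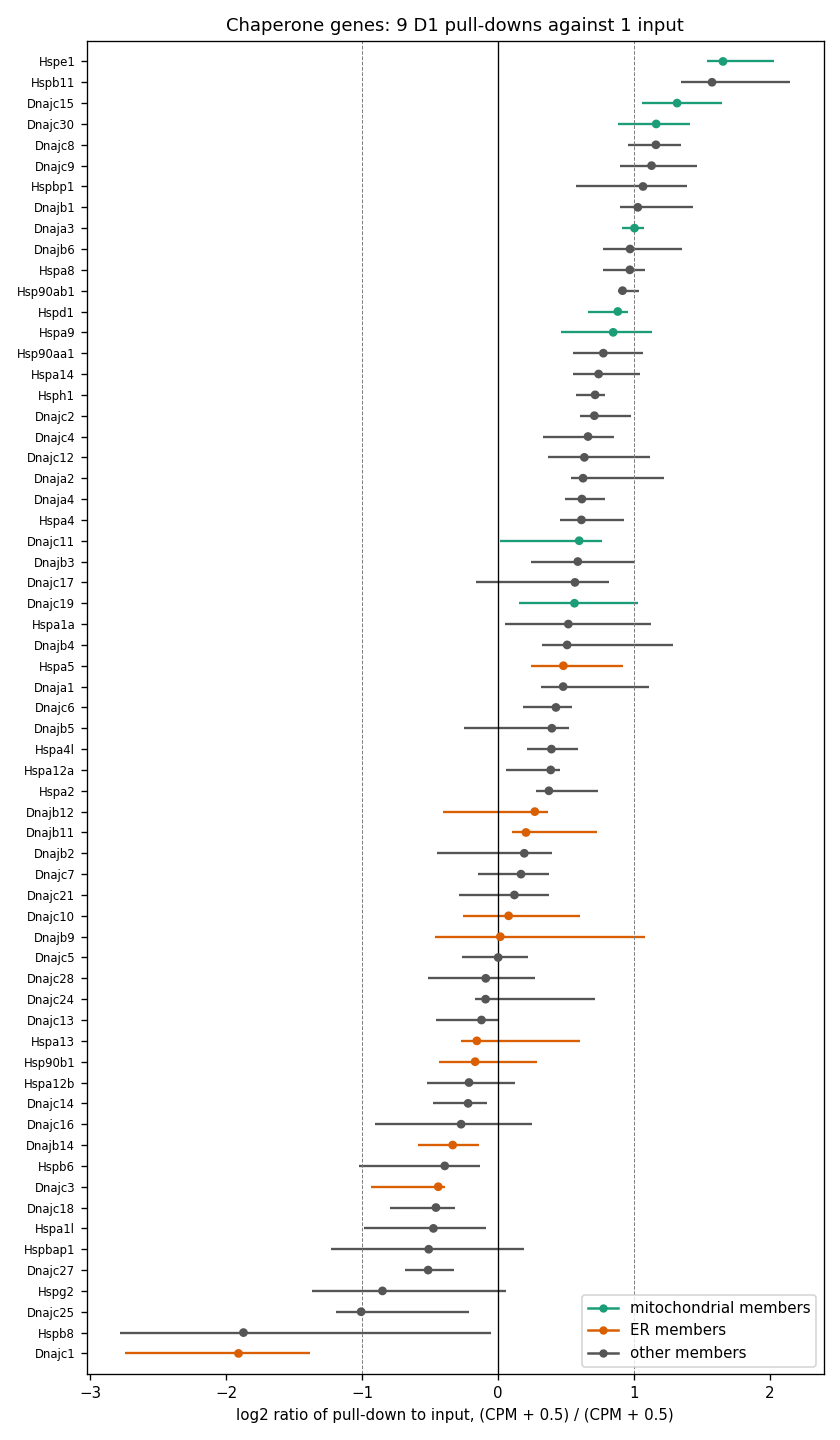
Log2 ratio of pull-down to input for the 63 members, with the median (point) and the range (line) over 9 pull-downs; dashed lines mark 2-fold. The listed mitochondrial members (green) lie right of 0. The listed ER members (orange) lie on both sides, from Hspa5 at a ratio of 1.39 to Dnajc1 at 0.266.

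The listed mitochondrial chaperones stood high as a group. All 8 listed mitochondrial members lay above the input in each of the 9 pull-downs, and their median ratio was 1.92. This holds for the list as chosen. The J-domain member Dnajc28 was left off it and had a median ratio of 0.939 (0.701 to 1.20), above the input in 3 of 9 pull-downs. Hspe1, the cochaperonin that caps the Hspd1 folding chamber (chromosome 1, 55088148 to 55091317), was at 34.3, 46.4 and 41.3 CPM in cocaine, 34.5, 32.9 and 46.7 in yoked and 35.8, 36.6 and 34.3 in saline pull-downs, against 11.0 in the input. Every pull-down was thus at least 2.90 times the input, with a median of 3.15. Its partner Hspd1 (chromosome 1, 55077833 to 55088243) had a median ratio of 1.84 (1.58 to 1.94), and the mitochondrial Hsp70 Hspa9 one of 1.80 (1.38 to 2.19). Hspd1 and Hspe1 meet head to head on opposite strands, RefSeq names 23 pseudogenes for Hspd1 and 7 for Hspe1, and the strand setting of the counting is not given in the sources used here, so reads of these genes are less certain.

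The listed J-domain members of the mitochondria followed. Dnajc15, of the inner membrane near the protein import motor, averaged 48.0 ± 6.39 CPM over 9 pull-downs (SD), with 18.6 in the input, a median ratio of 2.49. Dnajc30, another inner membrane protein, averaged 60.6 ± 6.59 CPM (SD over 9) against 27.0 in the input, with ratios of 1.84 to 2.67. Dnaja3, the DnaJ homologue of the matrix, had a median ratio of 2.005 and the narrow range 1.88 to 2.11. The listed mitochondrial folding partners outside both families, 8 genes such as Trap1 and the exchange factor Grpel1, had a median ratio of 1.59, with Grpel1 at 2.47 and Trap1 at 1.60.

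The main cytosolic Hsp90 and Hsp70 genes had ratios above 1, while the Hsp70 family genes Hspa1l and Hspa12b were at 0.719 and 0.862. The cytosolic Hsp90 genes Hsp90ab1 (constitutive) and Hsp90aa1 (inducible) had median ratios of 1.89 and 1.71. Hsp90ab1 averaged 1263 ± 56.8 CPM over 9 pull-downs (SD) against 655 in the input. Hspa8, the constitutive Hsp70 that with its J-domain partners also uncoats clathrin (chromosome 9, 40801276 to 40805202), averaged 135 ± 10.4 CPM (SD over 9) against 69.7 in the input, a median ratio of 1.96. Hsph1, of the Hsp110 exchange factors, was at 1.64 and Hspa4, another of them, at 1.53. The J-domain partners Dnajb1 and Dnaja1 were at 2.04 and 1.39, and Hspbp1, an Hsp70 exchange factor, at 2.09. Of 10 listed heat-inducible members, the mitochondrial Hspd1 and Hspe1 among them, 8 were measured. All 8 lay above the input in each of the 9 pull-downs (median 1.77). Hspa1a, the classic inducible Hsp70, was scarce, at 0.274 to 1.13 CPM (6 to 51 counts) in the pull-downs against 0.247 in the input (10 counts). Its near-identical copy Hspa1b had 23 counts over all 9 pull-downs, and since alignments that are not unique stand outside the gene counts, the level of either is uncertain.

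Most listed partners of these chaperones also lay above the input. Of 20 listed cofactors of Hsp70 and Hsp90, 12 lay above the input in each of 9 pull-downs and 1 below, with a median ratio of 1.495. All 8 subunits of the cytosolic CCT chaperonin lay above it in each (median 1.67), from Tcp1 at 1.19 to Cct7 at 2.30. The heat shock factor genes Hsf1 and Hsf2 were at 1.55 and 1.34. The cofactor below was Bag3, named after its value was seen, at 0.277 (0.118 to 0.552). It pairs with the small heat shock protein Hspb8 in selective autophagy, and Hspb8 was at 0.273 (0.146 to 0.966).

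Members of the ER were split around the input level. The median over 10 ER members was 0.952 (1.07 with TMM scaling, which also put Hsp90b1 and Hspa13 at 1.01 and 1.03), with 2 above the input in each of 9 pull-downs and 3 below. With TMM scaling 2 lay above in each and 2 below. Hspa5, the ER Hsp70 known as BiP (chromosome 2, 34772090 to 34776529), averaged 82.3 ± 11.9 CPM over 9 pull-downs (SD) against 57.7 in the input, a median ratio of 1.39. Its J-domain partner Dnajb11 was at 1.15. Hsp90b1, the ER Hsp90 known as Grp94, was at 0.889 (0.740 to 1.22), and Dnajc3, an inhibitor of the kinase PERK, at 0.737 (0.522 to 0.761). The 12 listed ER folding genes outside both families had a median of 1.204, from Sec63, itself a J-domain protein of the translocon, at 0.441 to Manf at 1.51. The 6 listed regulators of ER stress had a median of 1.11.

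Dnajc1, a J-domain protein of the ER membrane (chromosome 2, 18205634 to 18394099), was the member lowest against the input. It was at 9.03, 4.88 and 5.88 CPM in cocaine, 9.25, 11.3 and 13.3 in yoked and 10.03, 8.38 and 9.11 in saline pull-downs, against 35.6 in the input. Every pull-down lay far under the input, at ratios of 0.149 to 0.383 with a median of 0.266. The summed astrocyte, oligodendrocyte and microglial markers were at 630 to 2003 CPM among pull-downs, against 5277 for the input, and the hormone RNA named above was also highest in the input; their part and that of the cortical markers in the ratios were not tested.

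Other members far from the input level have duties apart from general folding. Hspb11, a subunit of the intraflagellar transport complex despite its name, averaged 16.1 ± 3.24 CPM over 9 pull-downs (SD) against 4.74 in the input (median ratio 2.98). Dnajc8, a spliceosome-associated protein, and Dnajc9, a histone chaperone, were at 2.24 and 2.19. On the low side were Dnajc25 at 0.497, Dnajc27, which joins a J domain to a Rab-like GTPase, at 0.700, Hspbap1 at 0.702, the testis-type Hsp70 Hspa1l at the level given above, Dnajc18 at 0.728 and the small heat shock protein Hspb6 at 0.762. Dnajc5, the cysteine string protein of synaptic vesicles, was at 1.0002 (0.833 to 1.17), and the endosomal Dnajc13 at 0.919 (0.730 to 0.9997), or 1.04 with TMM scaling. The clathrin uncoating factor Dnajc6 (auxilin) lay above the input in each of the 9 pull-downs, at 1.34 (1.13 to 1.45).

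The next comparison set cocaine self-administration against the yoked control. No member passed the test (quasi-likelihood test of edgeR, Benjamini-Hochberg adjusted over 14680 genes), with 0 of 63 called and 0.0% of all genes called. The smallest adjusted p of a member was 0.974. DESeq2 called 0 members as well. At an unadjusted p under 0.05 there were 3 members, Dnajc1, Dnajc28 and Hspbp1, where 2.58% of all genes passed. The median member lay at a log2 fold change of -0.075 (-0.026 over all genes); without yoked 3 it lay at 0.0090 (0.011 over all genes). A log2 fold change above 0 was seen for 21 of 63 members (45.5% of all genes).

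Dnajc1 had the smallest p. With the levels given above, all 3 cocaine pull-downs lay below all 3 yoked ones, the nearest pair being 9.03 CPM in cocaine 1 and 9.25 in yoked 1. The log2 fold change was -0.78 ± 0.24 (SE), with an unadjusted p of 0.0055 and an edgeR adjusted p of 0.974. Under 13 other settings the log2 fold change ran between -1.04 and -0.60 and the adjusted p between 0.727 and 1.

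Dnajc28 (chromosome 16, 91614257 to 91618999) was at 10.8, 8.73 and 8.55 CPM in cocaine, 11.9, 12.9 and 13.9 in yoked and 11.1, 10.4 and 7.91 in saline pull-downs, and at 11.5 in the input. The yoked pull-downs lay above both other groups without overlap. The log2 fold change was -0.46 ± 0.18 (SE) for cocaine against yoked and 0.45 ± 0.18 (SE) for yoked against saline, and these comparisons share the yoked libraries (edgeR, unadjusted p = 0.0254 and 0.0286, adjusted p = 0.974 and 0.999).

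Hspa8 was at 120, 126 and 122 CPM in cocaine, 142, 148 and 142 in yoked and 137, 134 and 145 in saline pull-downs. Its cocaine levels lay below both other groups without overlap. The log2 fold change was -0.22 ± 0.12 (SE) against yoked and -0.13 ± 0.12 (SE) against saline (edgeR, unadjusted p = 0.0871 and 0.309), so neither passed. Against yoked, 6 members lay lower in every cocaine pull-down (3.6% of all genes) and 0 higher in every one (2.87% of all genes). The 6 were Dnajc1, Dnajc28, Dnajc3, Hsp90aa1, Hspa4l and Hspa8.

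**Figure D2:**
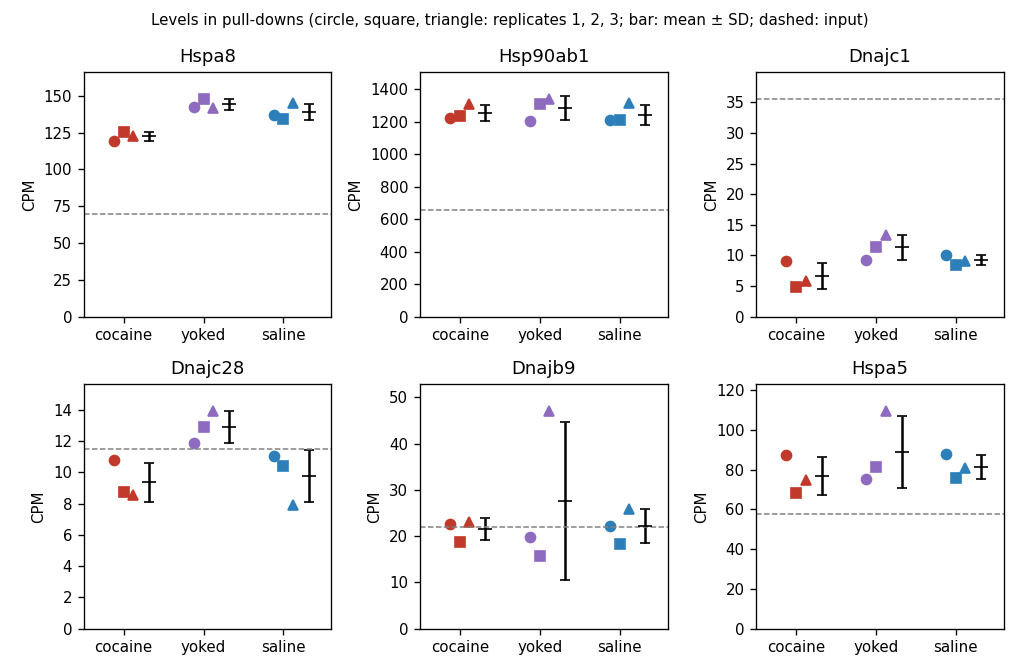
CPM of 6 members in each pull-down by group, with the mean ± SD (n = 3) beside the points and the input as a dashed line. Hspa8 and Dnajc28 show yoked points above all cocaine points, Dnajc1 lies far under its input of 35.6 CPM, and yoked 3 (triangle) is the highest point for Dnajb9 and Hspa5.

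Among the best-covered members (mean count of at least 50), the other low ends of this comparison were Dnajb9 at a log2 fold change of -0.36 ± 0.35 (SE), Hspa13 at -0.33 ± 0.21 and Hspa9 at -0.27 ± 0.15. For Dnajb9, an ER J-domain protein that restrains the stress sensor Ire1, the value turned to 0.32 without yoked 3, and for Hspa13 it was -0.0053. The high end held Hspbp1 at 0.37 ± 0.17, Dnajb12 at 0.29 ± 0.17, Dnajb5 at 0.23 ± 0.16, Dnajc30 at 0.22 ± 0.14 and Hspa1l at 0.21 ± 0.28. Hspbp1 was at 42.1, 54.4 and 53.0 CPM in cocaine and 44.0, 43.3 and 30.5 in yoked pull-downs, so the groups overlapped. Hspd1, Hsp90ab1 and Hsph1 had log2 fold changes of -0.00034, -0.022 and -0.075, with 95% intervals of -0.26 to 0.26, -0.30 to 0.25 and -0.33 to 0.18.

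Cocaine self-administration was then set against saline self-administration. Again 0 of 63 members were called (0.0% of all genes), and the smallest adjusted p was 0.999 by edgeR. No member had an unadjusted p under 0.05, where 2.84% of all genes did, and DESeq2 called 0 members. The median log2 fold change was 0.0092 (0.0036 over all genes), and 34 of 63 members lay above 0 (50.6% of all genes). The high end held Dnajc12 at 0.31 ± 0.22 (SE), Hspbp1 at 0.27 ± 0.17, Dnajc19 at 0.26 ± 0.23, Dnajc9 at 0.26 ± 0.14 and Hspe1 at 0.25 ± 0.18. The low end held Dnajc1 at -0.43 ± 0.24, Dnajc16 at -0.41 ± 0.23, Dnajc13 at -0.18 ± 0.14, Dnajc18 at -0.17 ± 0.13 and Dnajc7 at -0.15 ± 0.12.

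Dnajc12, a partner of the aromatic amino acid hydroxylases, was at 11.9, 16.3 and 11.5 CPM in cocaine and 11.0, 10.8 and 11.5 in saline pull-downs. The groups touched without overlapping, cocaine 3 lying just above saline 3. Groups did not overlap for 2 members with cocaine above (3.76% of all genes) and 5 with cocaine below (7.31% of all genes). The 5 were Dnajb14, Dnajc13, Dnajc14, Hspa4l and Hspa8, and the 2 were Dnajc12 and Dnajc24.

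For yoked against saline, 0 of 63 members were called (0.0% of all genes), with a smallest adjusted p of 0.999 by edgeR, and DESeq2 called 0. Only Dnajc28 had an unadjusted p under 0.05, where 1.84% of all genes did. The median log2 fold change was 0.089 (0.026 over all genes) and 41 of 63 members lay above 0 (55.0% of all genes); without yoked 3 the median was -0.036 (-0.0027 over all genes). Beside Dnajc28, the high end held Hspa13 at 0.39 ± 0.21 (SE), Dnajc24 at 0.37 ± 0.26, Dnajb9 at 0.37 ± 0.35 and Dnajc1 at 0.34 ± 0.24. The low end held Dnajb12 at -0.29 ± 0.17, Dnajb5 at -0.27 ± 0.16, Dnajc16 at -0.22 ± 0.23, Hspa1l at -0.20 ± 0.28 and Dnajc5 at -0.19 ± 0.12. Without yoked 3, Dnajb9 and Dnajc24 turned to -0.31 and -0.040 and Hspa13 was at 0.067.

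Dnajc5 was at 349, 340 and 290 CPM in yoked and 407, 378 and 365 in saline pull-downs. Every yoked pull-down was below every saline one, as was true of 4 members (4.42% of all genes), while 4 lay above (2.48% of all genes). Hspa1a was at 0.647, 0.689 and 1.13 CPM in yoked and 0.282, 0.479 and 0.513 in saline pull-downs, a log2 fold change of 1.01 ± 0.62 (SE) that did not pass (edgeR, unadjusted p = 0.126). The saline libraries held 8, 6 and 12 counts of it, and the 95% interval ran from -0.32 to 2.35.

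**Figure D3:**
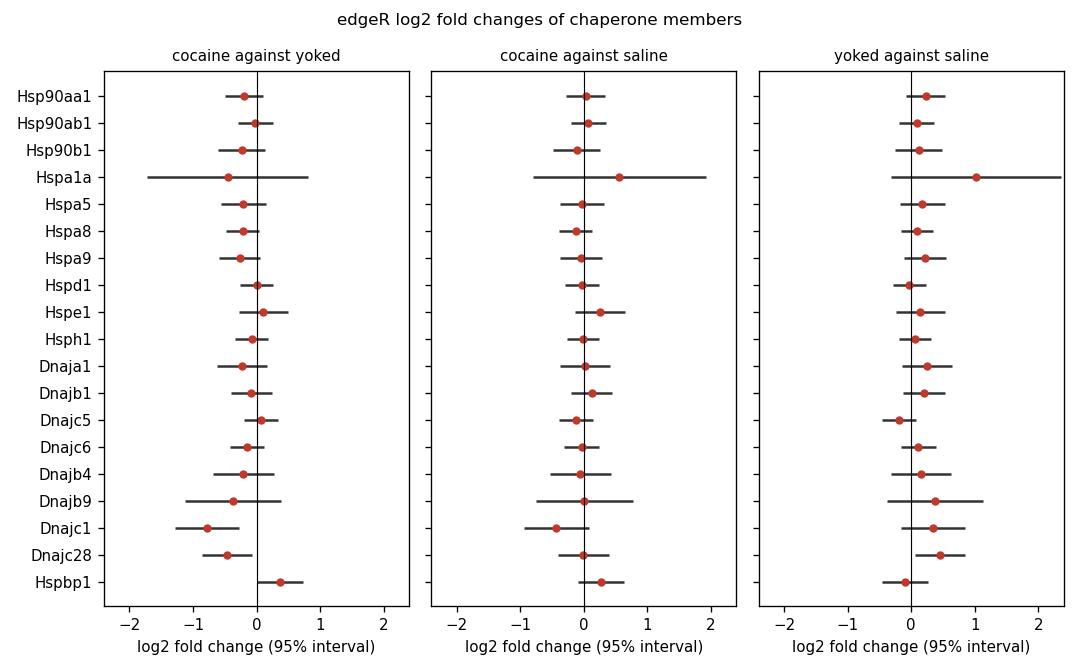
Log2 fold changes of 19 members in the 3 comparisons, with 95% intervals from edgeR as lines. Most intervals cross 0; for cocaine against yoked those of Dnajc1 and Dnajc28 lie left of 0 and that of Hspbp1 just right of it, for yoked against saline that of Dnajc28 lies right of 0, and Hspa1a has the widest intervals.

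Partner genes were read from the same fits. Of the listed cofactors, CCT subunits, heat shock factors, ER folding, ER stress and mitochondrial folding genes, 0 were called in any comparison. The smallest unadjusted p among them was that of Canx, the ER lectin calnexin, at a log2 fold change of -0.36 for cocaine against yoked (edgeR, unadjusted p = 0.0348, adjusted p = 0.974).

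The members were then read library by library. Yoked 3 held the highest CPM of the 9 pull-downs for 30 of 63 members (23.1% of all genes) and the lowest for 11 (26.3% of all genes). The 30 members made up 47.6% of the 63. With TMM scaling in place of total counts, a setting added once the data had been seen, the count was 37. Under that scaling 3940 of all 14680 genes were highest in yoked 3, against 3395 with total counts. In the other 8 pull-downs 1 to 9 members were at their highest.

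**Figure D4:**
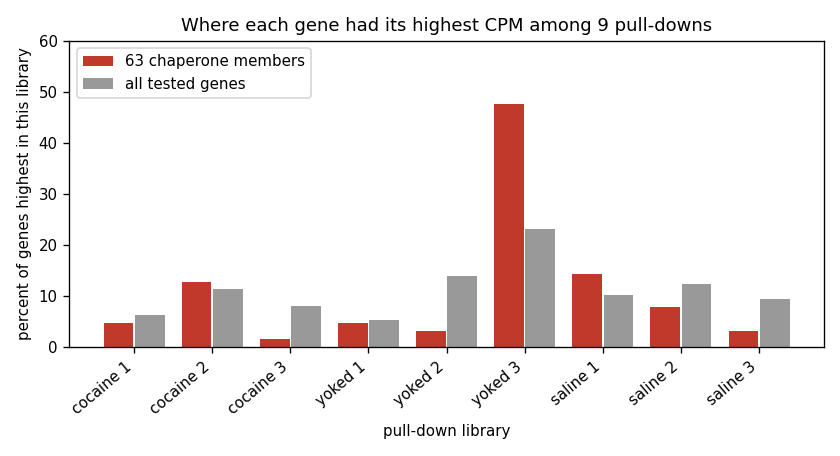
Percent of genes with their highest CPM in each pull-down, for the 63 members (red) and all tested genes (grey). Yoked 3 holds 47.6% of the members and 23.1% of all genes.

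Of 10 listed ER members, 7 were highest in yoked 3 (23.1% of all genes were), as were all 3 of the Hsp90 genes (Hsp90b1 counts in both). The ER median there was 0.45 above the median of the 9 pull-downs on the log2 scale. The count depends on the list, and the J-domain members Dnajc14, Dnajc16 and Dnajc18 were left off it. None of them was highest in yoked 3, and Dnajc14 was lowest there. Dnajb9 was at 47.1 CPM in yoked 3, against 15.7 to 25.7 in the other 8. Hspa13, an ER Hsp70, was at 31.7 CPM, against 17.0 to 19.6. Hspa5 was at 110 and Hsp90b1 at 312 CPM, against 68.3 to 87.6 and 189 to 255 in the other 8. Dnajc10, an ER disulphide reductase, was at 85.3 CPM in yoked 3 and 46.8 to 65.4 elsewhere. Of the remaining listed ER members, Dnajb11 was at 41.9 CPM in yoked 3, under the 44.1 of cocaine 3. Dnajc3 was at 25.2 CPM in yoked 3, inside the 17.4 to 25.6 of the other 8, and Dnajb12 was lowest there.

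Members of the heat-inducible list, which also holds the mitochondrial Hspd1 and Hspe1, were high in yoked 3 too. There 6 of 8 were at their highest (23.1% of all genes were), Hspe1 among them, with a median deviation of 0.34 on the log2 scale. Dnaja1 was at 100.4 CPM, against 57.6 to 70.6 in the other 8 pull-downs, and Dnajb1 at 133, against 91.7 to 110. Outside that list Dnajb4 was at 386 CPM, against 197 to 269, Dnaja2 at 260, against 162 to 181, and Dnajc24, which serves diphthamide synthesis, at 13.3, against 6.99 to 8.42. Hspa8 and Hspd1 were not at their highest there. Mitochondrial members had a median deviation of 0.16 in yoked 3, the listed cofactors -0.16 and the heat shock factor list -0.55. At their highest there were 4 of 8 mitochondrial members, 5 of 20 cofactors and 1 of 5 genes of the heat shock factor list. Also outside the members, the 12 listed ER folding genes deviated by 0.20 in yoked 3, with 5 at their highest. The 8 CCT subunits deviated by 0.17, with 5 at their highest. The listed ER stress regulators deviated by 0.0059 and the mitochondrial folding genes by 0, with 1 of 6 and 2 of 8 at their highest. In the same library D1 markers deviated by 0.25, D2 markers by -0.98, astrocyte markers by -0.85 and oligodendrocyte markers by -1.28. In cocaine 3 the astrocyte and oligodendrocyte markers deviated by -0.60 and -1.15 and the ER members by -0.049. In saline 3 the D1, D2, astrocyte and oligodendrocyte markers deviated by 0.16, -0.82, -0.89 and -1.25 and the ER members by 0.025. The parts of cell composition, depth and read matching in the chaperone levels were not tested.

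**Figure D5:**
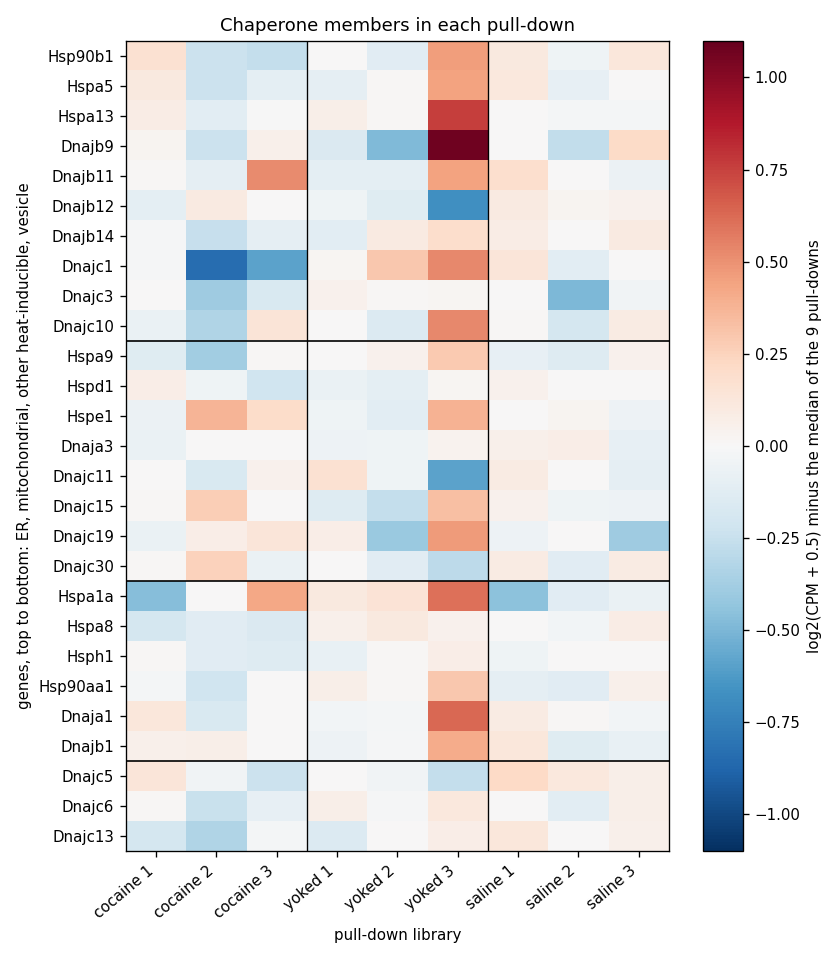
Log2(CPM + 0.5) of 27 members in each pull-down minus the median of the 9, red above and blue below. The yoked 3 column lies above the median for 9 of 10 ER rows, with Dnajb9 deepest red, and Dnajc1 is bluest in cocaine 2.

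Promoters of the ER members were read for the ER stress element, since several of these genes were high in the same library. The element was searched on both strands as CCAAT and CCACG with 9 bases of any kind between them, in RefSeq windows from 250 bases before to 50 after the start (GRCm38.p6, the build known as mm10). It stood in 37 of 27025 genes (0.137%) and in 3 of 61 members with a window, namely Hspa5, Hsp90b1 and Dnajc3. The element was first described in promoters of ER chaperone genes, so matches among them were likely beforehand. Its use in yoked 3 was not tested. The 250 bases before each start are shown 5′ to 3′ on the gene's strand with the element in capitals, for Hspa5 at chr2:34771840-34772089 (plus strand), Hsp90b1 at chr10:86705445-86705694 (minus strand) and Dnajc3 at chr14:118937682-118937931 (plus strand).
Hspa5: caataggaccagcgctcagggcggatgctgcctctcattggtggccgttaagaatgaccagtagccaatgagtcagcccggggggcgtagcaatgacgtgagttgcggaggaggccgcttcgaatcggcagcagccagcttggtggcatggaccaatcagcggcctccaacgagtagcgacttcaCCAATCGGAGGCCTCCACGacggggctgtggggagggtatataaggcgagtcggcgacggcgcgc
Hsp90b1: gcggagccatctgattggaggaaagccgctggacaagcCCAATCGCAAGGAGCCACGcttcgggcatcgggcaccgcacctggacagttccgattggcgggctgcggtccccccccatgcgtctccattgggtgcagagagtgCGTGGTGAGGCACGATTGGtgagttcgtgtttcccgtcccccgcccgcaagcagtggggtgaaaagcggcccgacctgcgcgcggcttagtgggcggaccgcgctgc
Dnajc3: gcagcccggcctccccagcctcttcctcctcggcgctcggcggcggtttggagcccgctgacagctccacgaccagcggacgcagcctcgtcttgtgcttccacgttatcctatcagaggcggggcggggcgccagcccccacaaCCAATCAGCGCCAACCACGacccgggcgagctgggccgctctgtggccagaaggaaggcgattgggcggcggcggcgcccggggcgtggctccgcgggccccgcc
Hsp90b1 carried the element on each strand. Of the 3 genes, Hspa5 and Hsp90b1 were highest in yoked 3 and Dnajc3 was not, and Dnajb9, the member highest above the others there, had no match in its window.

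A heat shock element was searched on both strands as TTC, GAA and TTC with 2 bases of any kind between each. It stood in 179 of 27025 genes (0.662%) and in 4 members, Dnajb6, Hspd1, Hspe1 and Hsph1. This element was first described in heat shock genes, so matches among them were likely beforehand. Hspd1 and Hspe1 share the same bases, because their windows overlap. These bases are shown because both chaperonin genes lay well above the input; the 120 bases before the Hspe1 start at chr1:55088028-55088147 (plus strand) hold overlapping matches, in capitals.
Hspe1: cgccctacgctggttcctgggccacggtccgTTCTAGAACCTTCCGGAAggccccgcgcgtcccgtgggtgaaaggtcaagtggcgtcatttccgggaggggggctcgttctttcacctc
A match of letters describes the window and was not tested for use.

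Spread over the 9 pull-downs was measured for the best-covered members. The median SD of log2 CPM was 0.193 over 60 members with a mean count of at least 50, against 0.231 over 11895 such genes. Members and all such genes were not matched for count level, so the medians do not rank members against genes of like level. The most variable were Hspbap1 (0.47), Dnajb9 (0.44), Dnajc1 (0.42), Dnajc25 (0.41) and Hspa1l (0.35). Hspbap1 was at 4.01, 2.18 and 2.36 CPM in cocaine, 2.90, 4.13 and 1.24 in yoked and 2.36, 2.23 and 4.15 in saline pull-downs, with all groups overlapping.

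The other 12 members did not reach the count level. Dnajb8 and Dnajc5g had 0 counts in every library, which allows up to 0.0663 to 0.239 CPM in a pull-down (3 counts, covering counting error only). Dnajb13, Dnajb7, Dnajc22, Dnajc5b, Hspa1b, Hspb1, Hspb2, Hspb3, Hspb7 and Hspb9 had 1 to 28 counts summed over the 9 pull-downs. Hspb1, the small heat shock protein known as Hsp25, had 13 counts over the 9 pull-downs and 10 in the input. Near the threshold inside, Hspg2, which encodes the matrix protein perlecan and not a chaperone, passed with at least 10 counts in 4 pull-downs and Hspa1a in 6; the other 61 did so in all 9.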

How the data were processed

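Each library's deposited file holds raw read counts, 1 whole number per gene symbol. The submitters' processing notes name STAR 2.0.0e, HTSeq and the build mm10; the annotation, strand setting and counting mode were not given in the sources used here. The 6 rows naming no gene were left out. Groups came from the sample titles. Group differences were tested with edgeR 4.0.16 (R 4.3.3; quasi-likelihood F test, robust, TMM, filterByExpr) on the 9 pull-downs with group as the only term, and adjusted by Benjamini-Hochberg over 14680 genes; calls were made at an adjusted p under 0.05. Rn45s, a ribosomal RNA gene, made up 10.5% to 20.5% of pull-down counts. Alternatives were DESeq2 1.42.0, upper quartile scaling, no filter, a replicate block, leaving out each library and, for the input, a pseudocount of 2, TMM, totals without Rn45s and a mean count of 50. The edgeR fit was tested on simulated counts. Named genes were 16 fixed members (Hspa1b and Hspb1 did not pass the count level), the 5 highest and 5 lowest fold changes per comparison, the 8 highest and 8 lowest input ratios and the 5 most variable, at a mean count of at least 50; others named are marked by list or were chosen after their values were seen. Members and lists were chosen with earlier results of these data known.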

Additional observations from a re-analysis of the deposited data

How the results depend on the processing

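No member was called in any of the 3 comparisons under any of the 13 alternatives, while 0 or 1 gene of the whole table was. The count of members at least 2-fold above the input in each pull-down was 3, and 9 with TMM over the 10 libraries (Dnaja3, Dnajb1, Dnajc15, Dnajc30, Dnajc8, Dnajc9, Hsp90ab1, Hspb11 and Hspe1), which moved the median log2 ratio of all genes to 0.14 from -0.035. It put Dnajc13, Dnajc24, Dnajc28, Hsp90b1 and Hspa13 above their input level, where total counts put them below. The count at least 2-fold below was 1. Same-numbered libraries did not deviate together in every pair (correlation -0.017 to 0.246, over 0.1 in 6 of 9 pairs), so the numbers were not used to pair samples. Pairs numbered 2 ran from 0.128 to 0.227 and pairs numbered 3 from 0.231 to 0.246, while pairs numbered 1 ran from -0.017 to 0.053. Pairs between numbers 2 and 3 ran from -0.254 to -0.142. Differently numbered libraries ran from -0.254 to 0.151, over 0.1 in 1 of 18 pairs, and cocaine 1 correlated best with yoked 2, so a shared number is a hint from the data only. With a replicate block 0 members were called in each comparison. The log2 fold change of Hspd1, cocaine against yoked, was -0.00034, and 0.0014 with the block and 0.0095 with upper quartile scaling. Fold changes of 22 named results changed sign when 1 library was left out, none of them past the threshold. For cocaine against saline the ranges were -0.039 to 0.12 for Hsp90aa1, -0.10 to 0.044 for Hspa5, -0.17 to 0.056 for Hspa9, -0.070 to 0.022 for Hspd1, -0.048 to 0.024 for Hsph1, -0.024 to 0.090 for Dnaja1 and -0.090 to 0.038 for Dnajc6. For cocaine against yoked the ranges were -0.084 to 0.040 for Hsp90ab1, -0.33 to 0.0090 for Hspa5, -0.045 to 0.068 for Hspd1, -0.0012 to 0.31 for Hspe1, -0.37 to 0.058 for Dnaja1, -0.18 to 0.11 for Dnajb1 and -0.64 to 0.32 for Dnajb9. For yoked against saline the ranges were -0.11 to 0.23 for Hsp90b1, -0.038 to 0.30 for Hspa5, -0.094 to 0.0024 for Hspd1, -0.059 to 0.24 for Hspe1, -0.0029 to 0.12 for Hsph1, -0.037 to 0.39 for Dnaja1, -0.31 to 0.65 for Dnajb9 and -0.040 to 0.55 for Dnajc24. The cause of these changes was not tested. Depth limits Hspa1a, Hspg2 and Hspb8, the 3 measured members with a mean count under 50.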
